A study of Mus musculus with 6 samples.

Results

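The neutrophil marker genes were 10 rows of the gene count table of APAP-overdosed mouse liver, chosen by symbol out of 34745 rows. They were the calgranulins S100a8 and S100a9, the receptors Csf3r, Cxcr2 and Il1r2, and the secreted and granule proteins Retnlg, Mmp8, Ngp, Camp and Wfdc21. The paper describes the mice as male C57BL/6J aged 8 to 10 weeks, a sex that the WT libraries go against below. They were WT in every sample label and were fasted for 12 hours before treatment. APAP, the analgesic acetaminophen, was injected at 300 mg/kg for 12 hours, and control mice received saline. Each group had 3 livers among the 6 samples, and the table analysed here held 5 libraries, 2 of APAP livers (replicates 1 and 3) and 3 named WT1, WT2 and WT3. The WT libraries were taken for the saline group by their names, an assumption behind each difference given below. The library of APAP replicate 2 was not analysed here.

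Neutrophils are short-lived granulocytes that are made in the bone marrow and enter tissues from the blood. They load antimicrobial proteins into granules in a fixed order during maturation, so that granule genes are transcribed in marrow precursors, while the chemokine receptor gene Cxcr2 marks later stages. Few neutrophils are found in resting liver, and their entry after acetaminophen overdose has been widely studied. In bulk liver RNA, a change in the number of neutrophils and a change in the RNA of each neutrophil cannot be told apart.

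The calgranulin genes lie close together and moved together, and Mmp8, a granule gene, was picked because it carried motif matches. Upstream sequences of these 3 members are shown. Each is the stretch of 250 bases just before the RefSeq start of the gene on GRCm38.p6, written 5′ to 3′ on the strand of the gene, at chr3:90668821-90669070 (+ strand), chr3:90695722-90695971 (− strand) and chr9:7558179-7558428 (+ strand). Capitals mark matches to TTNCNNAA, written for C/EBP factors of the granulocyte lineage, to GAGGAA, written for PU.1, and to TATAAA, the TATA box. The first pair of motifs was searched on both strands, so that a GAGGAA on the other strand reads TTCCTC, and TATAAA on the strand of the gene.
S100a8: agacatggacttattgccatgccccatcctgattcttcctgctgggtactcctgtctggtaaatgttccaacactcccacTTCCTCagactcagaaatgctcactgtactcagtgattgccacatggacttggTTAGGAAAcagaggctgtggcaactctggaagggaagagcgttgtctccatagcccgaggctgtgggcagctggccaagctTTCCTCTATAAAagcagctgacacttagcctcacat
S100a9: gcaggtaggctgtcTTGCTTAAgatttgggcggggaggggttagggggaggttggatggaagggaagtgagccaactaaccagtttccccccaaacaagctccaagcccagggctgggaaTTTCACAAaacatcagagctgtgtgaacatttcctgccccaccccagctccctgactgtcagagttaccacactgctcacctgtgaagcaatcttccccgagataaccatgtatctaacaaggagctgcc
Mmp8: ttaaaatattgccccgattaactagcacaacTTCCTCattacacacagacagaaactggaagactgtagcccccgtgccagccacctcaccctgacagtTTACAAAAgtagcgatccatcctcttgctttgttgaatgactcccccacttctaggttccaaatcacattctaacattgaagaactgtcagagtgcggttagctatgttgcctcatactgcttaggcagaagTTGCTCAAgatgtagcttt

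In the S100a8 sequence the second TTCCTC is followed directly by the TATAAA, and the pair reads as 1 run of capitals. RefSeq upstream sequences were matched for 9 of the 10 members, all but Wfdc21. A C/EBP match was present in 5 of these 9 (S100a8, S100a9, Mmp8, Ngp and Retnlg) and in 36.8% of 32851 promoters of the same length. PU.1 matches were found in 4 of 9 (S100a8, Mmp8, Csf3r and Cxcr2) against 23.3% of promoters, and the TATA box in S100a8 alone against 7.59%. Camp, also a granule gene, and Il1r2 had 0 matches to any of these motifs. A match describes letters and was not tested as a binding site.

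Libraries held between 13378445 and 15976339 counts in total, and 3 counts, taken as the floor of detection in a library, were worth 0.176 to 0.269 CPM. CPM are counts scaled to the TMM-normalized library size, and counting intervals and floors cover counting error only. Of 13734 genes that passed the filter on low counts, 3.70% were called higher in APAP livers and 3.53% lower at an adjusted p under 0.05 (edgeR's quasi-likelihood test, Benjamini-Hochberg adjustment over all genes tested). Their median log2 fold change was 0.03 with TMM scaling and 0.42 with scaling to library size only. The liver label was borne out by Alb, the hepatocyte albumin gene, with between 877251 and 1802111 counts per library. The libraries named WT went against the stated sex. Xist, transcribed from the inactive X chromosome, had 3231, 13763 and 13204 counts in WT1, WT2 and WT3 and 13 and 28 in the APAP libraries, while Ddx3y on the Y chromosome had 1344 and 998 counts in APAP livers and 0, 0 and 1 in the WT libraries. Treatment and sex therefore cannot be told apart for any value that follows. The mismatch also bears on the reading of the WT libraries as the male saline mice of the paper, which was not tested.

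All 9 members other than Wfdc21 had higher CPM in both APAP livers than in each saline liver, and 8 of the 10 were called higher. The called genes were S100a8, S100a9, Retnlg, Csf3r, Cxcr2, Mmp8, Ngp and Camp. Il1r2 missed the threshold, Wfdc21 lay lower, and 0 members were called lower. The background shares were 3.70% called higher, 24.0% with both APAP libraries above every saline library and 20.1% with both below. By an unadjusted P under 0.05 with a fold change of at least 1.5, 9 of 10 members were higher against 12.3% of all genes tested. All 10 passed the filter on low counts, but S100a9, Csf3r and Wfdc21 were the members that would have passed it on the saline libraries alone. The other 7 entered the test through their APAP counts, so the number that passed is no evidence by itself. The same selection favours the counts of members called, without overlap or higher by the unadjusted P. Their distance from the background shares is therefore a description only. Of the members free of this selection, S100a9 and Csf3r were called higher and Wfdc21 was not called.

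**Figure D1:**
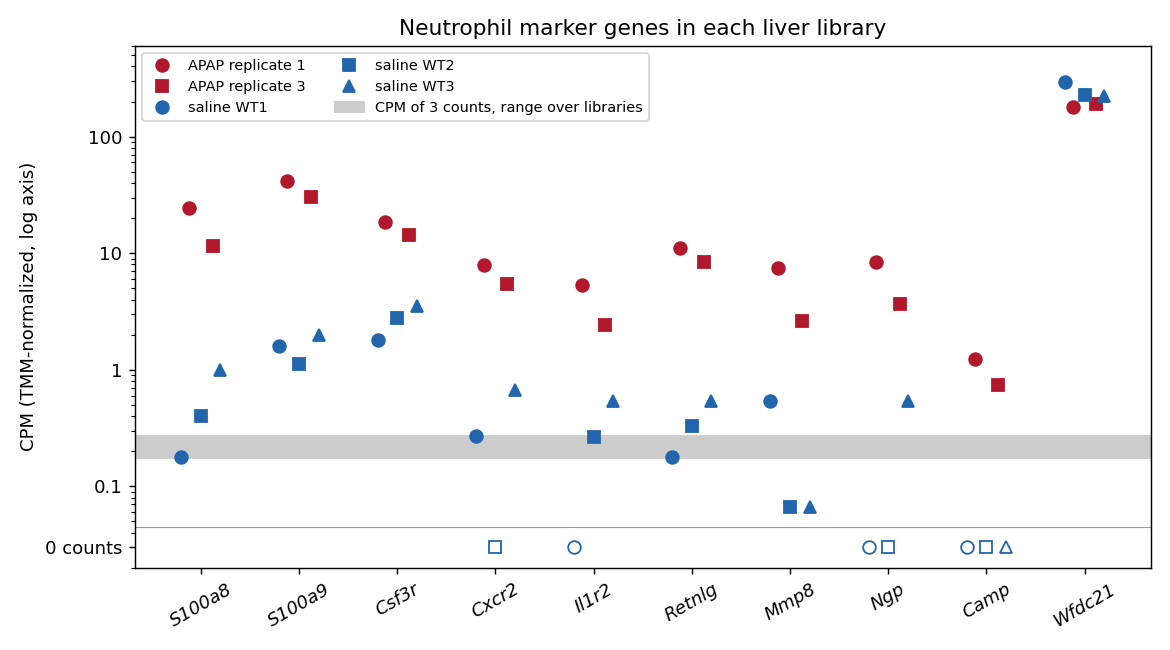
CPM of the 10 neutrophil marker genes in each library on a log axis, with red for APAP livers, blue for saline livers, open symbols for libraries with 0 counts and a grey band for the CPM that 3 counts are worth (0.176 to 0.269). In 9 genes both red symbols lie above every blue symbol, and in Wfdc21 both lie below.

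The calgranulins S100a8 and S100a9 form calprotectin, the abundant cytosolic calcium- and zinc-binding protein of neutrophils. They lie 22596 bases apart on chromosome 3 of GRCm38, S100a8 at 90668978 to 90670035 on the + strand and S100a9 at 90692632 to 90695721 on the − strand. S100a8 had 413 and 187 counts in APAP replicates 1 and 3 and 2, 6 and 15 in WT1, WT2 and WT3, or 24.3 and 11.6 CPM against 0.179, 0.399 and 1.0 CPM. The groups were far apart, although the saline values themselves spread from just under the floor in WT1 to several times above it in WT3. Mean levels were 17.9 ± 8.99 CPM (SD, n = 2) and 0.527 ± 0.426 CPM (SD, n = 3), a 34.0-fold difference, and the fitted log2 fold change was 5.02 ± 0.62 (SE, adjusted p = 0.00800). Without WT2 it was 4.83 (adjusted p = 0.0576), and its adjusted p was under 0.05 in the 11 other alternatives in which it was tested. The difference in means was 21.95-fold without APAP replicate 1 and 62.0-fold without WT3. S100a9 had 707 and 490 counts in APAP livers and 18, 17 and 30 in saline livers. In CPM this was 41.5 and 30.3 against 1.61, 1.13 and 2.0, so that every saline library held S100a9 above the floor. S100a9 rose 22.7-fold, from 1.58 ± 0.438 to 35.9 ± 7.96 CPM (SD, n = 3 and 2), with a log2 fold change of 4.50 ± 0.31 (SE, adjusted p = 0.00181). It had the smallest standard error of the 8 called members and an adjusted p under 0.05 in all 13 alternatives tried.

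Csf3r encodes the receptor for G-CSF, the cytokine that drives neutrophil production. It had 316 and 233 counts in APAP livers and 20, 42 and 53 in saline livers, or 18.6 and 14.4 CPM against 1.79, 2.79 and 3.54 CPM. Among the called members it had the highest saline counts and the smallest rise, 6.09-fold from 2.71 ± 0.877 to 16.5 ± 2.95 CPM (SD, n = 3 and 2), with a log2 fold change of 2.59 ± 0.34 (SE, adjusted p = 0.0102). The adjusted p was 0.0660 without APAP replicate 1 and 0.0625 without WT2. Cxcr2, the chemokine receptor through which neutrophils follow CXCL1 and CXCL2, had 135 and 88 counts in APAP livers and 3, 0 and 10 in saline livers. All saline values were near or under the floor except that of WT3, and APAP values were 7.93 and 5.44 CPM. The mean was 21.4-fold higher in APAP livers, with a log2 fold change of 4.38 ± 0.88 (SE, adjusted p = 0.0348). Its call was lost without APAP replicate 1 (adjusted p = 0.167), APAP replicate 3 (adjusted p = 0.0785), WT1 (adjusted p = 0.0874) or WT2 (adjusted p = 0.0576), and the difference in means was 14.3-fold without WT2 and 49.7-fold without WT3. On GRCm38, Csf3r lies at 126024550 to 126044440 on chromosome 4 and Cxcr2 at 74153989 to 74161246 on chromosome 1, both on the + strand. Of the 50-base words of these receptors, 11.5% for Csf3r and 6.77% for Cxcr2 also occur in transcripts of other genes, against 0 for the other members, and how such reads were counted is not given in the sources used here.

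Il1r2 encodes the decoy receptor that binds interleukin 1 without signalling, and lies at 40074079 to 40125231 on chromosome 1 of GRCm38 (+ strand), with no other exon overlapping its own. It had 91 and 39 counts in APAP livers and 0, 4 and 8 in saline livers, or 5.35 and 2.41 CPM against 0, 0.266 and 0.535 CPM. The groups did not overlap and the mean differed 14.5-fold, but the replicate spread was wide, and the log2 fold change of 3.75 ± 0.89 (SE) did not pass the test (adjusted p = 0.0535). Across 12 alternatives its adjusted p was between 0.000265 and 0.281, under 0.05 in 5 of them. The difference in means was 9.04-fold without APAP replicate 1, 9.70-fold without WT1 and 29.2-fold without WT3.

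Retnlg, a secreted resistin-like protein of neutrophils, was the closest of the other members to the calgranulins in its pattern. It lies at 48872608 to 48874498 on chromosome 16 of GRCm38 (+ strand). It had 189 and 135 counts in APAP livers and 2, 5 and 8 in saline livers, or 11.1 and 8.35 CPM against 0.179, 0.332 and 0.535 CPM. Retnlg rose 27.9-fold, with a log2 fold change of 4.73 ± 0.46 (SE, adjusted p = 0.00433), and the adjusted p stayed under 0.05 in all 12 alternatives in which it was tested.

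Mmp8, Ngp and Camp are products of the specific granules of maturing neutrophils. Mmp8, neutrophil collagenase, had 128 and 42 counts in APAP livers and 6, 1 and 1 in saline livers. In CPM, APAP replicate 1 was at 7.52 and replicate 3 at 2.60, the widest ratio between the APAP livers among the members. Its mean was 22.6-fold higher in APAP livers, with a log2 fold change of 4.57 ± 0.90 (SE, adjusted p = 0.0337). The adjusted p was 0.210 without APAP replicate 1, where the difference in means was 11.6-fold, 0.126 without WT2 and 0.0653 without WT3, and without WT1, which held 6 of the 8 saline counts, the log2 fold change was 6.11 (adjusted p = 0.0348).

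Ngp, neutrophilic granule protein, had 144 and 59 counts in APAP livers, and its 8 counts in saline livers all came from WT3. Ngp rose from 0.178 ± 0.309 to 6.05 ± 3.40 CPM (SD, n = 3 and 2), a log2 fold change of 4.94 ± 1.10 (SE, adjusted p = 0.045), and was not called by DESeq2 (adjusted p = 0.151). Nor was it called without APAP replicate 1 (adjusted p = 0.229), APAP replicate 3 (adjusted p = 0.0762), WT1 (adjusted p = 0.0907) or WT2 (adjusted p = 0.131), and without WT3 no saline count was left. The difference in means was 34.0-fold with all libraries and 20.5-fold without APAP replicate 1. Camp, the cathelicidin antimicrobial peptide gene, had 21 and 12 counts in APAP livers and 0 in every saline library. Camp was called higher by the quasi-likelihood test (adjusted p = 0.0476). With each saline library set to the floor of 3 counts, its mean was 4.43-fold higher in APAP livers, a value that leaves out the counting error of the APAP libraries. The adjusted p was 0.134 without APAP replicate 3, 0.0721 without WT1, 0.110 without WT2 and 0.0648 without WT3, and without APAP replicate 1 Camp did not pass the filter. The floor of 3 counts was worth 0.199 CPM in WT2 and 0.269 CPM in WT1, so low Camp RNA in saline livers was not detectable at this depth. Camp and Ngp lie on chromosome 9 of GRCm38 with 570129 bases between them, Camp at 109847379 to 109849617 on the − strand and Ngp at 110419747 to 110423012 on the + strand, and Mmp8 lies at 7558429 to 7568486 on the same chromosome.

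**Figure D2:**
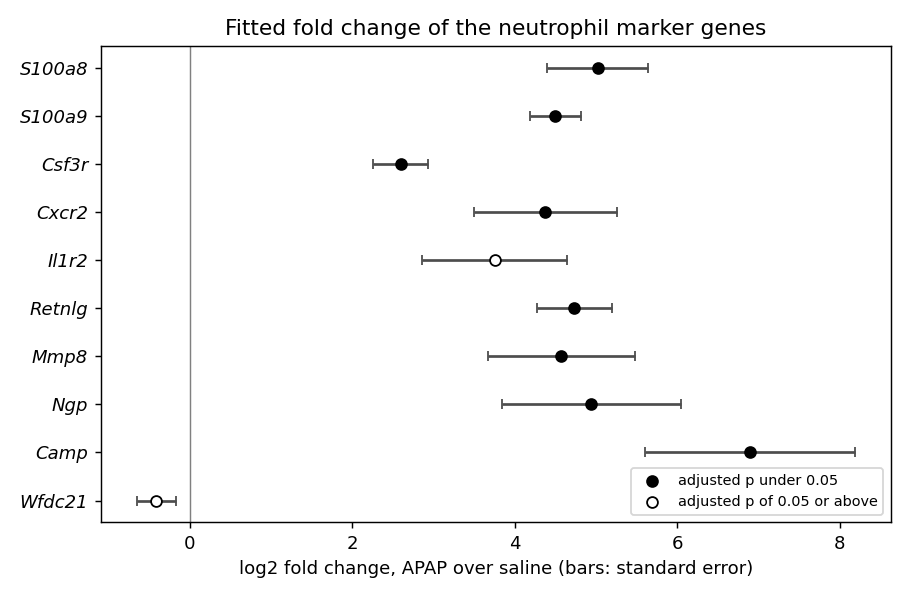
Fitted log2 fold change of APAP over saline livers for the 10 neutrophil marker genes, with bars for 1 standard error and filled points for an adjusted p under 0.05. The called genes lie between 2.59 (Csf3r) and 6.89 (Camp, whose fitted value depends on the prior count because saline livers had 0 counts), and Wfdc21 lies at −0.42.

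Wfdc21, a secreted protein with a WAP domain, did not follow the other members. Its gene is on the + strand of chromosome 11 of GRCm38, at 83746940 to 83752642. It had 3073 and 3068 counts in APAP livers and 3267, 3400 and 3320 in saline livers, so raw counts were nearly level over all libraries. After TMM scaling these were 181 and 190 CPM against 293, 226 and 222 CPM, with both APAP values below every saline value. The ratio of means was 0.750, or 0.922 in raw counts, and the log2 fold change of −0.42 ± 0.24 (SE) did not pass the test (adjusted p = 0.339). It ranged from −0.49 to −0.01 over 13 alternatives, the value nearest to 0 being that with library size only. Per kb of exon, Wfdc21 was at 511 to 675 CPM in saline livers, where S100a9, next in order, was at 2.16 to 3.84 CPM. In these livers its level was thus not that of the other neutrophil marker genes, and sums below leave it out.

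Length-scaled levels kept a similar order in both groups. In CPM per kb of exon, APAP livers had means of 426 for Wfdc21, 68.8 for S100a9, 25.8 for S100a8 and 16.4 for Retnlg. Next came Ngp (4.95 CPM per kb) and Csf3r (4.57 CPM per kb), whose ranges over the 2 APAP livers overlapped (2.98 to 6.92 and 3.99 to 5.15). Cxcr2, Mmp8, Il1r2 and Camp followed with means from 2.19 down to 1.30 CPM per kb, and each overlapped its neighbour in that order. In saline livers Wfdc21 and S100a9 again came first, and S100a8 (0.759 CPM per kb), Csf3r (0.750) and Retnlg (0.588) followed with overlapping ranges, so that their order is not fixed. Csf3r was above S100a8 per kb in WT1 and WT2 and below it in WT3. With the length of the longest transcript, 7 of 10 members kept their rank in APAP livers.

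Over all 10 members the summed level was 307 and 269 CPM in APAP livers and 297, 231 and 231 CPM in saline livers, which overlapped, and most of it was Wfdc21. Wfdc21 was left out of the next sums after its values were seen. The summed counts of the other 9 were 2144 and 1285 in APAP livers and 51, 75 and 133 in saline livers. In CPM this was 126 and 79.4 against 4.57, 4.98 and 8.88, with all 9 members detected in each APAP library, 6 in WT1 and WT2 and 8 in WT3. APAP replicate 1 exceeded replicate 3 in each of the 9, by ratios of CPM from 1.29 for Csf3r to 2.90 for Mmp8, while the ratio for Wfdc21 was 0.952. Ptprc, the CD45 gene of all leukocytes, had 335 and 384 counts in APAP livers and 113, 179 and 242 in saline livers. The summed members thus gave 6.40 and 3.35 counts per Ptprc count in APAP livers and 0.451, 0.419 and 0.550 in saline livers, without overlap.

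Ratios between members were also read within libraries, where scaling cancels. The ratio of Csf3r to S100a9 counts was 0.447 and 0.476 in APAP livers and 1.11, 2.47 and 1.77 in saline livers. Both APAP ratios lay below every saline ratio, so the counts of Csf3r were fewer for each S100a9 count in these APAP libraries. The S100a8 to S100a9 ratio was 0.584 and 0.382 in APAP livers and 0.111, 0.353 and 0.50 in saline livers, and these ranges overlapped. Ngp to S100a9 gave 0.204 and 0.120 in APAP livers and 0, 0 and 0.267 in saline livers, again with overlap. With 2 against 3 libraries, a two-sided exact permutation test of such a ratio cannot go below p = 0.2, so none was run.

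**Figure D3:**
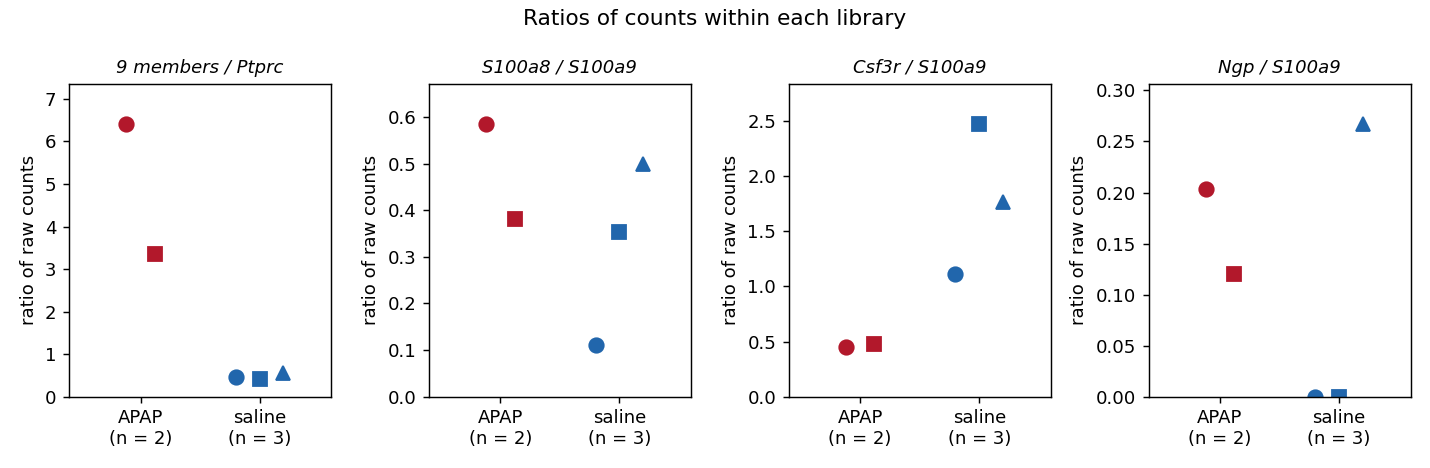
Ratios of raw counts within each library (linear axes from 0) for APAP livers in red and saline livers in blue, with 1 symbol per library. The ratio of the 9 summed members to Ptprc is 6.40 and 3.35 in APAP livers and at most 0.550 in saline livers, the Csf3r to S100a9 ratio is lower in both APAP livers, and the S100a8 and Ngp ratios to S100a9 overlap between groups.

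Another 29 neutrophil genes were listed, of which 27 matched 1 row each and 14 passed the filter. Of these 14, 7 were called higher and 0 lower (edgeR's quasi-likelihood test), while the likelihood ratio test called 10 higher, the exact test 10 and DESeq2 9, and 12 of 14 were higher at an unadjusted p under 0.05. Over all genes tested these tests called 3.70%, 7.03%, 6.91% and 6.83% higher, and 13.1% were higher at an unadjusted p under 0.05. By subgroup, the quasi-likelihood test called 1 of 1 primary granule gene, 3 of 5 later granule genes, 1 of 5 other surface genes and 2 of 3 other intracellular genes. The median log2 fold change of the 14 was 3.20, against 0.03 over all genes tested. Of the 27, 9 had 0 counts in every saline library, and 2 of these, Stfa2 and Stfa3, had 0 in all 5. Chil3, a chitinase-like protein of neutrophils and macrophages, had 423 and 372 counts in APAP livers and 2, 3 and 4 in saline livers (log2 fold change 6.73 ± 0.31 SE, adjusted p = 0.000583). Lcn2, the siderophore-binding lipocalin of specific granules that hepatocytes also secrete, had 34810 and 10693 counts against 132, 143 and 930. Its log2 fold change was 5.60 ± 0.97 (SE, adjusted p = 0.0231). Also called were Trem1, an activating receptor of myeloid cells (63 and 51 counts against 0, 3 and 2, adjusted p = 0.0179), Cd177, a surface glycoprotein of neutrophils (15 and 19 against 1, 0 and 0, adjusted p = 0.0419), and the protease Asprv1 (35 and 18 against 2, 1 and 2, adjusted p = 0.0341). Slpi, a leukocyte protease inhibitor, rose less, with 128 and 85 counts against 11, 25 and 22 (log2 fold change 2.20 ± 0.39 SE, adjusted p = 0.0247).

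Primary granule genes, which are transcribed in the earliest granulocyte precursors, were low. Prtn3, proteinase 3, was the 1 gene of 5 that was tested, with 50 and 43 counts in APAP livers and 2 in each saline library, and it was called higher (log2 fold change 4.18 ± 0.55 SE, adjusted p = 0.0102). Mpo, myeloperoxidase, had 63 and 9 counts in APAP livers and 0, 2 and 0 in saline livers. Elane, neutrophil elastase, had 14 and 2 counts against 0, 1 and 0, and Ctsg, cathepsin G, had 13 counts in APAP replicate 1 and 0 elsewhere. In all 3, APAP replicate 1 held most of the counts. Ly6g, the defining surface marker of mouse neutrophils, had 4 and 8 counts in APAP livers and 0 in every saline library, too few to be tested. The specific granule gene Ltf, lactoferrin, had 66 and 48 counts against 3, 0 and 8 (adjusted p = 0.0609), and the surface gene Fpr1, a formyl peptide receptor, had a log2 fold change of 0.53 without passing the test.

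The ligands of the 3 member receptors did not share 1 pattern. Cxcl1, a ligand of CXCR2, had 1925 and 2480 counts in APAP livers and 37, 102 and 48 in saline livers, a log2 fold change of 4.90 ± 0.39 (SE, adjusted p = 0.00213). Cxcl2, another ligand of CXCR2, had 290 and 72 counts against 1 in each saline library (adjusted p = 0.00569). Il1rn, the interleukin 1 receptor antagonist, had 160 and 277 counts against 32, 36 and 74 (log2 fold change 1.96 ± 0.42 SE, adjusted p = 0.0412). These were the 3 called of 6 tested and 9 listed, against 3.70% of all genes tested called higher. Il1b, an agonist bound by the IL1R2 decoy, had 86 and 104 counts against 61, 18 and 51 (log2 fold change 0.78, adjusted p = 0.454), and Il1a had a log2 fold change of −0.27 (adjusted p = 0.792). Csf3, which encodes G-CSF, had 1 count in APAP replicate 1 and 0 in the other libraries. Of 5 receptor partners and calgranulin receptors, Il1r1, Il1rap, Tlr4, Ager and Cd33, 0 were called by edgeR's quasi-likelihood, likelihood ratio or exact test or by DESeq2. Of these, 1 was higher (Tlr4, log2 fold change 1.27) and 1 lower (Il1rap, −0.67) at an unadjusted p under 0.05. Of 3 tested genes of endothelial adhesion, through which neutrophils leave the blood, 0 were called by these 4 tests and 2, Icam1 and Vcam1, were higher at an unadjusted p under 0.05 (log2 fold changes 0.59 and 0.80).

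Markers of other cell types were read beside the members, with how far they account for the member values not tested. Of 5 pan-leukocyte genes 0 were called higher by edgeR's 3 tests or DESeq2 (3 at an unadjusted p under 0.05) and 1, the actin-bundling gene Lcp1, was called lower (log2 fold change −1.55, adjusted p = 0.0418), and their summed level was 84.0 and 113 CPM in APAP livers and 112 to 163 CPM in saline livers. Without Lcp1, left out after its values were seen, the other 4 genes summed to 60.0 and 72.9 CPM in APAP livers and 38.9 to 44.4 CPM in saline livers, higher without overlap. Among 6 monocyte genes, 2 were called higher, the chemokine receptor gene Ccr2 (91 and 138 counts against 24, 37 and 30, adjusted p = 0.0402) and F13a1 (94 and 70 counts against 6, 7 and 15, adjusted p = 0.0211). The likelihood ratio test, the exact test and DESeq2 each called 3 of the 6, and 4 had an unadjusted p under 0.05. The matrix proteoglycan gene Vcan, not called by the quasi-likelihood test, had 51 and 75 counts against 0, 6 and 9 (log2 fold change 3.42, adjusted p = 0.0609). The summed level of the 6 was 76.6 and 136 CPM in APAP livers and 75.2 to 110 CPM in saline livers, most of it Lyz2. Without Lyz2, left out after its values were seen, it was 26.4 and 33.2 CPM against 10.4 to 11.7 CPM, again without overlap. Leaving out a gene for its values favours such a split, so the sums without Lcp1 and without Lyz2 are descriptions only. Of 11 Kupffer cell genes, 0 were called by edgeR's quasi-likelihood test and 1, Marco, by the likelihood ratio test, the exact test and DESeq2 (log2 fold change 2.49, adjusted p = 0.0625 in the first). At an unadjusted p under 0.05, 1 was higher and 1 lower, with a median log2 fold change of −0.26 and summed levels of 342 and 590 CPM against 383 to 555 CPM. Among 5 erythroid genes, markers of blood in the tissue, 0 were called by these 4 tests and 0 had an unadjusted p under 0.05, and their summed level was 43.9 and 145 CPM in APAP livers and 60.8 to 76.8 CPM in saline livers. The erythroid level was thus lower in APAP replicate 1 than in replicate 3, while the 9 summed members were higher there. The 6 markers of eosinophils, basophils and mast cells had at most 9 counts in any library, and Epx, eosinophil peroxidase, had 0 in all. Of 10 tested T, B and NK cell genes 0 were called by the quasi-likelihood test or DESeq2 and 1 was called lower by the likelihood ratio and exact tests, the same number as at an unadjusted p under 0.05. The 2 tested platelet genes gave 0 calls by all 4 tests and 0 at an unadjusted p under 0.05. Of 5 sinusoidal endothelial genes 0 were called by the 4 tests and 1 was higher at an unadjusted p under 0.05. Of 5 hepatocyte genes 0 were called by the quasi-likelihood test, 1 lower by the likelihood ratio and exact tests, 3 lower by DESeq2 and 3 lower at an unadjusted p under 0.05.

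**Figure D4:**
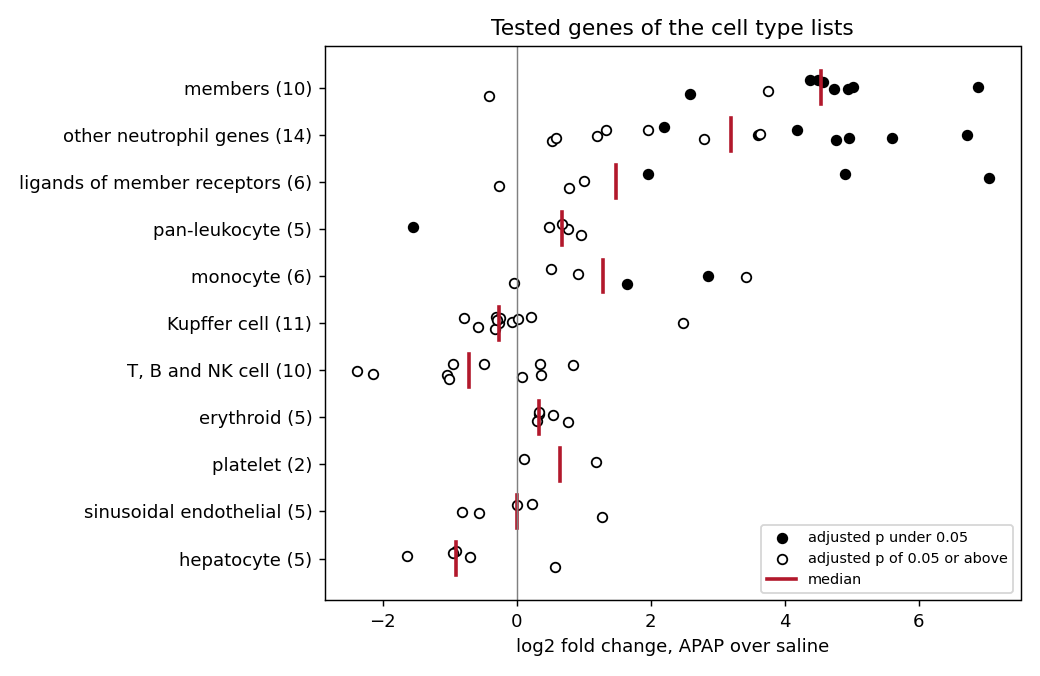
Fitted log2 fold changes of the tested genes in each list, with the number tested in parentheses, filled points for an adjusted p under 0.05 and a red line for the median. Members and other neutrophil genes lie mostly above 2, while Kupffer cell genes have a median of −0.26 and 0 called by the quasi-likelihood test that is plotted.

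The genes whose pattern over the 5 libraries was closest to that of S100a8 and S100a9 were found by the Euclidean distance between centred log2 CPM. Retnlg was nearest of all genes tested, at 0.494, nearer than either calgranulin to their own mean (0.673). Among the nearest genes outside the members were the mucin gene Muc5ac (0.934), Samd11 (1.02), Scn8a, Hmga2, the glutathione transferase gene Gsta1, the sulfiredoxin gene Srxn1 and Smpd3 (1.09). Of the other members, Ngp ranked 13 in this order, Cxcr2 39, Il1r2 62, Camp 97, Mmp8 141, Csf3r 150 and Wfdc21 10277. With 2 treated livers, such a distance mostly measures the size of the difference between the groups, and it is given as a description.

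**Figure D5:**
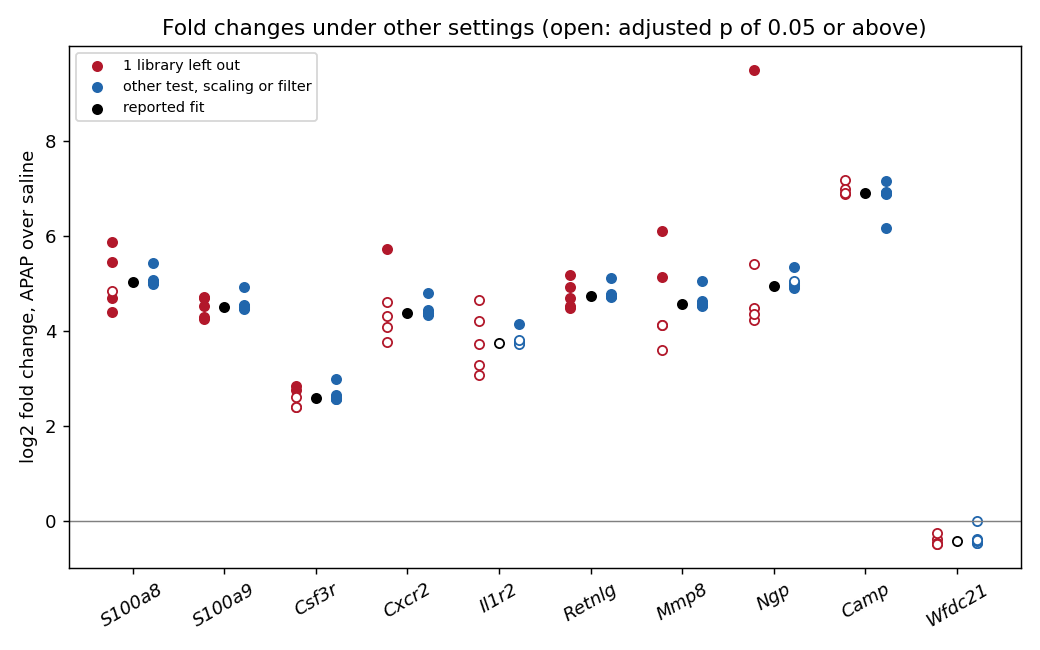
Log2 fold changes of the members in the reported fit (black), under other tests, scalings or filters (blue) and with 1 library left out (red), with open points for an adjusted p of 0.05 or above. No member changed sign in any of the alternatives drawn, S100a9 and Retnlg are filled throughout, and most open points of the other called members belong to fits without 1 library.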

How the data were processed

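Livers of 6 mice were sampled, and 5 count libraries were analysed. RNA was extracted with TRIzol, made into libraries with a SMARTER kit and sequenced on an Illumina NovaSeq 6000. The authors aligned reads with HISAT2 and deposited raw read counts per gene, with 5 columns of FPKM that were not used here. Their processing notes name GRCm38 (mm10), and strand use is not given in the sources used here. The members and gene lists were chosen with earlier results of these data known.

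Counts were tested with edgeR 4.0.16 in R 4.3.3. After filterByExpr with a minimum count of 10 and a minimum total of 15, counts were scaled by TMM and compared by the quasi-likelihood test with Benjamini-Hochberg adjustment over all genes tested. Alternatives were the exact and the likelihood ratio test of edgeR, DESeq2 1.42.0, other scalings and filters, each library left out, and P under 0.05 without adjustment at a fold change of 1.5 or more. Nothing in the labels says whether livers were processed separately, so p-values measure the spread between these libraries. Counts of replicate libraries differed more than sampling alone would give (chi-square divided by its degrees of freedom, 46.7 to 99.8). Loci are those deposited with the counts. Lengths were read from GENCODE M21, which held 34344 of the 34745 gene identifiers. For Retnlg and Mmp8 the bounds in GENCODE M21 differ slightly from the deposited ones. The genes named were the members, those of the neutrophil, ligand and partner lists, called or abundant genes of other lists and the 8 nearest profiles, and some of these genes are not reported here. The adhesion genes Icam1 and Vcam1 and the Y-linked Ddx3y were named after their values were seen. Figures were drawn with matplotlib 3.10.9.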

Additional observations from a re-analysis of the deposited data

How the results depend on the processing

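The direction of each member was kept under all 13 alternatives of the fit in which it was tested, and 8 members were called higher with DESeq2, size factors or upper-quartile factors and 9 with the likelihood ratio test, the exact test, library size only, no filter beyond 1 count or the unadjusted P. Requiring 10 or more counts in each library left 3 members to test, of which 2 were called, since it removes genes with fewer than 10 counts in any library. Leaving out each library in turn gave 2 to 6 called members, fewest without WT2, and 165 to 922 called genes in the whole table against 993. The whole-table count was 1835 with the likelihood ratio test, 1776 with the exact test, 2093 with DESeq2 and 3228 by the unadjusted P, and the cause was not tested. With library size only, 77.8% of all calls were higher against 51.2% with TMM. Among the other neutrophil genes, 7 called became 2 of 6 tested with at least 10 counts in every library, 12 by the unadjusted P and 1 to 6 without each library. The fits without an APAP library leave 1 treated liver, which is assumed to vary like the saline livers. No paired analysis was possible because the saline columns carry no number that ties them to the numbered saline samples. With 2 APAP libraries and saline counts near 0, the size of the rise is poorly fixed for S100a8, Cxcr2, Il1r2, Mmp8, Ngp and Camp.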
